A study of Mus musculus with 4 samples.

Results

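Yap1, Wwtr1, Tead1, Cyr61, Ctgf, Amotl2, Ajuba and F3, the effectors of the Hippo pathway and classical genes under their control, were followed in droplet-based scRNA-seq of thymic epithelial cells (TECs) from mice 6 weeks of age. These 8 of the 31053 genes in the matrices were found by their symbols, and all 8 were among the 23568 genes with a UMI (unique molecular identifier, 1 counted mRNA molecule) in more than 5 cells. The members were chosen by their role in the pathway and selected on the class levels of these same libraries, in which Cyr61 leads a Ccl21a-high, Mgp-high cluster, so levels by cell class and condition are given as a description with no test. The animals were C57BL/6 mice, either wild type (WT) or Cd40-deficient (Cd40-/-), that had received a neutralizing antibody to RANKL (RANKL-Ab, 5 mg/kg) or control IgG 2 weeks before analysis. RANKL and CD40 ligand act on receptors that maintain mature medullary TECs (mTECs), and the design asks what the loss of either or both does. Sorted EpCAM+ CD45- Ter-119- cells were pooled from 3 mice for each library, and each condition has 1 library, named WT-Control and WT-RANKL-Ab for wild-type mice and Cd40-/- Control and Cd40-/- RANKL-Ab for deficient mice. No difference between conditions can be tested here, and every interval below covers counting error only.

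The Hippo pathway is a kinase cascade in which the MST kinases (Stk3, Stk4) activate the LATS kinases (Lats1, Lats2), which phosphorylate the coactivators YAP and TAZ and hold them in the cytoplasm. When the cascade is off, as on stiff matrix or under tension, YAP and TAZ enter the nucleus, bind TEAD transcription factors and switch on genes such as Cyr61 and Ctgf. YAP and TAZ activity is set largely by where the proteins are and whether they are phosphorylated, which a count of mRNA does not show. Cyr61 is also an immediate early gene, induced within a short time by serum, stress or tissue handling.

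Cd40, the deleted gene, was read first. It stood at 109.99 UMIs per 1000000 UMIs (CPM) in WT-Control and 28.8 CPM in WT-RANKL-Ab, and at 5.75 and 4.75 CPM in the Cd40-/- libraries with control IgG and RANKL-Ab, in the order of the genotype labels, with Cd40 transcripts still counted in the deficient cells. The 4 libraries kept 10218, 7164, 8591 and 2082 cells after filters, with medians of 7622, 6086, 6267 and 7532 UMIs per cell. The Cd40-/- libraries shared 205 cell barcodes, 11.5 per 1000000 possible pairs, against 1.14 to 1.58 per 1000000 for the other pairs of libraries, and the shared barcodes held a median of 723 UMIs in the control IgG library and 24073 in the RANKL-Ab library.

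Cells were sorted into 16 classes by marker genes. Cells with at least 50 Ccl21a UMIs per 10000 UMIs were split at 20 UMIs of Mgp and Gpx3 together per 10000, Ccl21a being the chemokine that marks CCL21+ mTECs, Mgp a matrix protein that inhibits calcification and Gpx3 a secreted glutathione peroxidase. This gave 3056 Mgp/Gpx3-high and 5744 Mgp/Gpx3-low CCL21+ cells. The 2061 progenitor-like cells were gated on Pdpn, Dcn, Fmod, Serpinf1, Ackr4 and Gas1, the 2011 cTEC-like (cortical) cells on Psmb11, Prss16, Ccl25, Ly75 and Tbata, and the 3310 Aire+ mTEC-like cells, from 3 libraries, on Aire. The 2 Aire+ cells of Cd40-/- RANKL-Ab were left out. Several gates were passed by 34.6% to 59.4% of progenitor-like, 16.2% to 43.2% of cTEC-like and 26.9% to 34.4% of Aire+ cells. The Ccl21a gate counted among these gates, so progenitor-like cells high in Ccl21a are included. The share was 0.329% to 1.53% of Mgp/Gpx3-high and 4.67% to 12.5% of Mgp/Gpx3-low cells. It is low by construction, since the CCL21+ classes took cells left by earlier gates and could also pass only the early Aire-lineage gate. Where that overlap moved a value by more than 1.5 times, the value without these cells is given beside it. Epcam, the surface protein of the sort, was found at 764 to 950 CPM in Mgp/Gpx3-high and 534 to 638 CPM in progenitor-like cells.

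The 250 bases before the start of 4 target genes are printed, because the TEAD binding motif CATTCC, which reads GGAATG on the opposite strand, or the AP-1 motif TGANTCA lies in them. These are reference sequences of RefSeq on GRCm38.p6, read 5′ to 3′ on the strand of the gene, and capitals mark the motif. The windows are chr3:145649986-145650235 on the minus strand for Cyr61, chr9:102717554-102717803 on the plus strand for Amotl2, chr14:54577662-54577911 on the minus strand for Ajuba and chr3:121723287-121723536 on the plus strand for F3.
Cyr61: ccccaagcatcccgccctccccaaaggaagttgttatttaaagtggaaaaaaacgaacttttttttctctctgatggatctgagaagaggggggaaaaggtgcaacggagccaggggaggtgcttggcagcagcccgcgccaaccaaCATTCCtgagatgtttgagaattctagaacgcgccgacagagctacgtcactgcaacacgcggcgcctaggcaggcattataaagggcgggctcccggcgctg
Amotl2: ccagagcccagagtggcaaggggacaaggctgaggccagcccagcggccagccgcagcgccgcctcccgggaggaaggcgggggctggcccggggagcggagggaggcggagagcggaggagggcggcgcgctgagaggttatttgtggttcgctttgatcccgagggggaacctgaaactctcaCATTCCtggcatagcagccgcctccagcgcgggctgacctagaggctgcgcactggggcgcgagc
Ajuba: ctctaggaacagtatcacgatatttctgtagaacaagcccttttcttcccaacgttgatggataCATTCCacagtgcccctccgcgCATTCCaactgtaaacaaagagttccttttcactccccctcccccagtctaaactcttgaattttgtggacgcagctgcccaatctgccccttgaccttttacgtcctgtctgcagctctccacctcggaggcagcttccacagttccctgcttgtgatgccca
F3: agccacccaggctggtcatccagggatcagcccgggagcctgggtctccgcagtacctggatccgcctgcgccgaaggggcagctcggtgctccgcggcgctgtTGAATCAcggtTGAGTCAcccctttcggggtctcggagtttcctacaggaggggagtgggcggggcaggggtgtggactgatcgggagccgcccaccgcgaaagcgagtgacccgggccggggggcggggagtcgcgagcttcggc
CATTCC or its complement began 103 bases before the RefSeq start in Cyr61, 65 in Amotl2, and 186 and 164 in Ajuba. These starts can differ from the GENCODE gene positions given below. The Amotl2 window lies inside its gene position, chr9:102716672-102733418. Windows of Yap1 and Wwtr1 also held it, at 141 bases and, for the 2 annotated starts of Wwtr1, at 136 and 170 bases. The F3 window held no TEAD motif but 2 AP-1 motifs, at 146 and 135 bases. Of all 32851 promoter windows of this length, 12.6% held the TEAD and 6.75% the AP-1 motif. No window of Ctgf or Tead1 is shown. A match describes the letters and is not evidence of binding.

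Yap1 (chr9:7931999-8004596, minus strand, GRCm38) encodes YAP. Its level in Mgp/Gpx3-high cells was 35.9 CPM in WT-Control and 38.1 CPM in WT-RANKL-Ab, and 46.5 and 39.5 CPM in the Cd40-/- libraries with control IgG and RANKL-Ab, and in Mgp/Gpx3-low cells 28.8, 30.6, 36.8 and 38.2 CPM. Progenitor-like cells held 39.4, 53.3, 64.1 and 55.1 CPM and cTEC-like cells 24.6, 43.2, 50.9 and 45.8 CPM in the same order. By median over libraries the order was progenitor-like (54.2), cTEC-like (44.5) and Mgp/Gpx3-high (38.8), whose ranges overlapped. Within each library progenitor-like cells held more Yap1 than Mgp/Gpx3-low cells, by a log2 ratio of 0.45, 0.80, 0.80 and 0.53. Aire+ mTEC-like cells held 8.03, 10.2 and 9.91 CPM, below every library of those 4 classes.

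Wwtr1 (chr3:57455649-57575910, minus strand) encodes TAZ, the paralog of YAP. Mgp/Gpx3-high cells held 39.2, 45.0, 61.5 and 64.8 CPM of it in the same order of libraries, which is used from here on, and Mgp/Gpx3-low cells 34.7, 37.2, 48.3 and 48.3 CPM. Progenitor-like cells held 47.5 to 60.7 CPM, cTEC-like cells 14.5, 32.3, 29.3 and 38.7 CPM, and Aire+ cells 7.46, 15.3 and 7.28 CPM. The medians of progenitor-like (55.8), Mgp/Gpx3-high (53.3) and Mgp/Gpx3-low cells (42.8) belonged to overlapping ranges. Unlike Yap1, Wwtr1 was lower in cTEC-like than in Mgp/Gpx3-low cells within each library.

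Tead1 (chr7:112679318-112906807, plus strand) encodes a TEAD factor, through which YAP and TAZ reach DNA. Its level in Mgp/Gpx3-high cells was 24.5, 34.3, 55.1 and 56.2 CPM, and in Mgp/Gpx3-low cells 29.4, 32.0, 53.8 and 45.5 CPM. The classes overlapped, and Mgp/Gpx3-high cells were the lower ones in WT-Control (log2 ratio -0.26, 95% interval -0.51 to -0.02). Progenitor-like cells held 39.96, 50.6, 68.3 and 42.1 CPM and cTEC-like cells 15.5, 39.8, 52.5 and 37.6 CPM. The highest median of Tead1 was that of ciliated-like cells, 51.1 CPM with a range of 17.7 to 85.6 that rested on 30 UMIs in 123 cells, and the lowest was that of Aire+ cells, at 15.3 CPM.

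Cyr61 (chr3:145646976-145649981, minus strand) encodes CCN1, a secreted matrix protein that binds integrins. Mgp/Gpx3-high cells held 337, 359, 674 and 710 CPM of it, from 3028, 2449, 2607 and 1654 UMIs. Mgp/Gpx3-low cells held 133, 154, 334 and 454 CPM. The log2 ratio of the former to the latter was 1.34 (95% interval 1.26 to 1.43), 1.22 (1.14 to 1.31), 1.01 (0.93 to 1.10) and 0.64 (0.53 to 0.76). Mgp/Gpx3-high cells were thus higher within each library, by 2.53, 2.34, 2.02 and 1.56 times, although both Cd40-/- libraries of Mgp/Gpx3-low cells reached the level of the WT-Control Mgp/Gpx3-high cells or close to it.

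Progenitor-like cells came next by median, with 235, 338, 449 and 637 CPM of Cyr61, in a range that overlapped both CCL21+ classes. Without the cells that passed several gates the progenitor-like class held 170, 279, 365 and 486 CPM, and its log2 ratio to Mgp/Gpx3-low cells was 0.27, 0.78, 0.09 and 0.04. cTEC-like cells held 21.8, 84.9, 114 and 159 CPM and Aire+ cells 20.7, 22.5 and 22.1 CPM. The Aire+ levels were below those of thymocyte-like cells, 25.3 to 71.5 CPM, which hold free RNA and, in part, RNA of adhering cells.

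**Figure D1:**
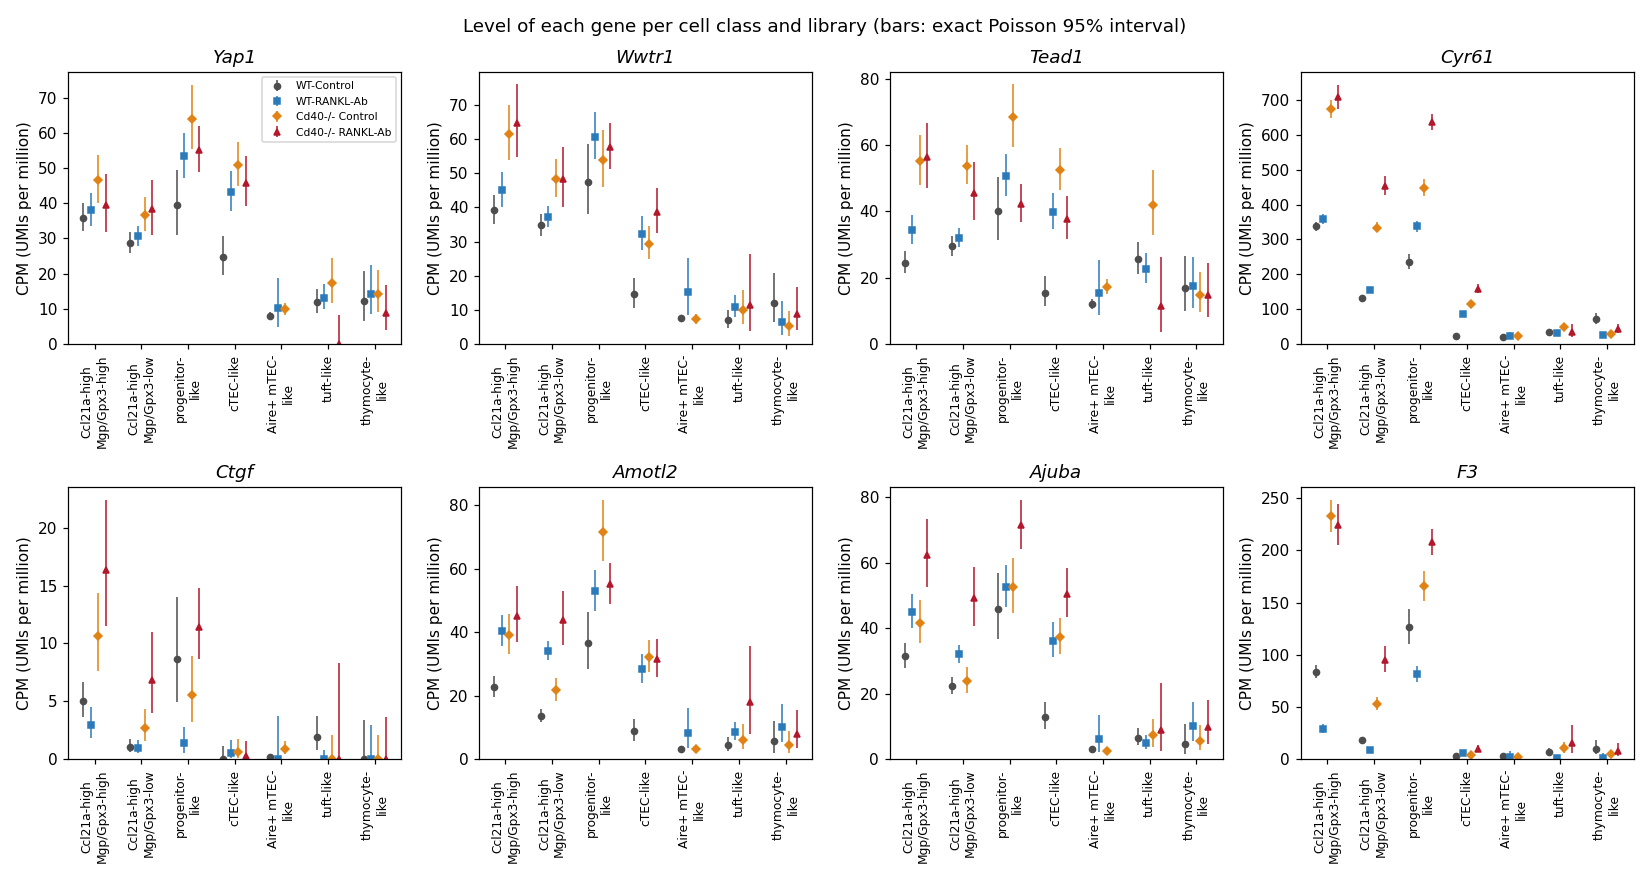
Level of each of the 8 genes (y axis, CPM) in 7 cell classes (x axis), with 1 point per library and bars for exact Poisson 95% intervals. Cyr61 sits between 337 and 710 CPM in Mgp/Gpx3-high cells and near 21 to 23 CPM in Aire+ mTEC-like cells.

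Ctgf (chr10:24595442-24598683, plus strand) encodes CCN2, a matrix protein related to CCN1 and the other textbook readout of YAP and TAZ, and was rare. Mgp/Gpx3-high cells held 45, 20, 41 and 38 UMIs of it (5.01, 2.93, 10.6 and 16.3 CPM), and Mgp/Gpx3-low cells 14, 15, 17 and 17 UMIs (1.06, 0.992, 2.72 and 6.84 CPM). The log2 ratios were 2.24 (1.35 to 3.22), 1.56 (0.52 to 2.63), 1.96 (1.11 to 2.87) and 1.25 (0.39 to 2.17), higher in Mgp/Gpx3-high cells of each library. Progenitor-like cells held 16, 7, 17 and 58 UMIs, which fell to 4, 2, 3 and 5 without the cells that passed several gates. cTEC-like cells held 0, 3, 3 and 1 UMIs, and no Ctgf UMI was found in early Aire-lineage-like, microfold-like or thymocyte-like cells.

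F3 (chr3:121723537-121735048, plus strand) encodes tissue factor, the cell surface receptor that starts blood coagulation. Mgp/Gpx3-high cells held 83.9, 29.3, 232 and 224 CPM (753, 200, 899 and 522 UMIs), and Mgp/Gpx3-low cells 18.4, 8.33, 53.1 and 95.4 CPM (242, 126, 332 and 237 UMIs). The log2 ratio was 2.19 (1.98 to 2.41), 1.81 (1.49 to 2.15), 2.13 (1.95 to 2.32) and 1.23 (1.01 to 1.46), or 4.56, 3.52, 4.38 and 2.35 times. In both CCL21+ classes F3 was lowest in WT-RANKL-Ab and higher in both Cd40-/- libraries than in WT-Control.

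Progenitor-like cells held 126, 81.3, 166 and 208 CPM of F3. Without the cells that passed several gates they held 99.9, 65.2, 61.1 and 68.4 CPM. The log2 ratio to Mgp/Gpx3-low cells became 2.33, 2.91, 0.11 and -0.56. In both Cd40-/- libraries the excess of the progenitor-like gate thus rested on cells that also passed another gate, which can be the Ccl21a gate. Progenitor-like cells held 13601, 11999, 10045 and 25144 CPM of Ccl21a, and which other gate the removed cells passed was not counted. F3 was low in cTEC-like cells (2.84, 6.23, 4.16 and 10.2 CPM) and in Aire+ cells (3.41, 2.04 and 2.48 CPM). Keratinocyte-like cells ranged from 18.3 to 159 CPM.

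Amotl2 (chr9:102716672-102733418, plus strand) and Ajuba (chr14:54567472-54577558, minus strand) are targets that also act on the pathway, the angiomotin AMOTL2 by holding YAP at junctions and the LIM protein AJUBA by inhibiting LATS kinases. Amotl2 stood at 22.7, 40.3, 39.0 and 45.1 CPM in Mgp/Gpx3-high cells and at 13.8, 34.2, 21.8 and 43.9 CPM in Mgp/Gpx3-low cells. Ajuba stood at 31.5, 45.0, 41.6 and 62.2 CPM and at 22.3, 32.0, 23.8 and 49.1 CPM in the same classes. For both genes progenitor-like cells had the highest median, 54.0 CPM (36.7 to 71.6) for Amotl2 and 52.6 CPM (45.9 to 71.4) for Ajuba, in ranges that overlapped those of Mgp/Gpx3-high cells. Unlike Cyr61 and F3, both were found in cTEC-like cells at levels within or near the CCL21+ range, except in WT-Control, where cTEC-like cells held 8.84 CPM of Amotl2 and 12.9 CPM of Ajuba. Aire+ cells held 3.09 to 8.18 CPM of Amotl2 and 2.63 to 6.13 CPM of Ajuba.

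Set side by side, 7 of the 8 members, all but Tead1, were higher in Mgp/Gpx3-high than in Mgp/Gpx3-low cells within each of the 4 libraries, where 13.2% of all genes were. Ctgf and F3 were at least 2-fold higher in each library, as were 0.618% of all genes. Because the list was built around this pattern, nothing is read from these counts. For Yap1 (0.05, interval -0.38 to 0.48) and Amotl2 (0.04) the log2 ratio in Cd40-/- RANKL-Ab was within counting error, and without the shared barcodes that of Amotl2 was -0.03, which leaves 6 members. The levels of Cyr61 and F3 in Mgp/Gpx3-high cells of that library were 707 and 211 CPM without the shared barcodes and 710 and 224 CPM with them. The count was also 6 with the gate thresholds doubled, where Wwtr1 was at -0.09 in WT-Control, and with them halved, where Amotl2 was at -0.21 in Cd40-/- RANKL-Ab.

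Over Mgp/Gpx3-low cells, progenitor-like cells were higher in each library for the same 7 members and 24.9% of all genes, and at least 2-fold higher for F3 alone and 3.72% of all genes. Without the cells that passed several gates F3 was at 0.11 and -0.56 and Cyr61 at 0.09 and 0.04 on the log2 scale in the Cd40-/- libraries, and no member was 2-fold higher in each library. cTEC-like cells were lower in each library for Wwtr1, Cyr61, Ctgf and F3, and for 26.2% of all genes. Aire+ cells were at least 2-fold lower in each of 3 libraries for all 8 members and 8.38% of all genes, but Ctgf rested there on 0 UMIs in WT-RANKL-Ab, where 3 counts would make 3.07 CPM and so no fold can be given. Within a library, over the members with at least 20 UMIs in both classes together, the median log2 ratio was 0.38 to 0.82 for Mgp/Gpx3-high and 0.51 to 0.94 for progenitor-like cells, where the median over all such genes was -0.09 to -0.02 and -0.02 to 0.09. It was -0.91 to -0.20 for cTEC-like and -2.75 to -1.71 for Aire+ cells, beside -0.07 to 0.04 and -0.31 to 0.13 over all such genes. These comparisons share the Mgp/Gpx3-low cells.

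**Figure D2:**
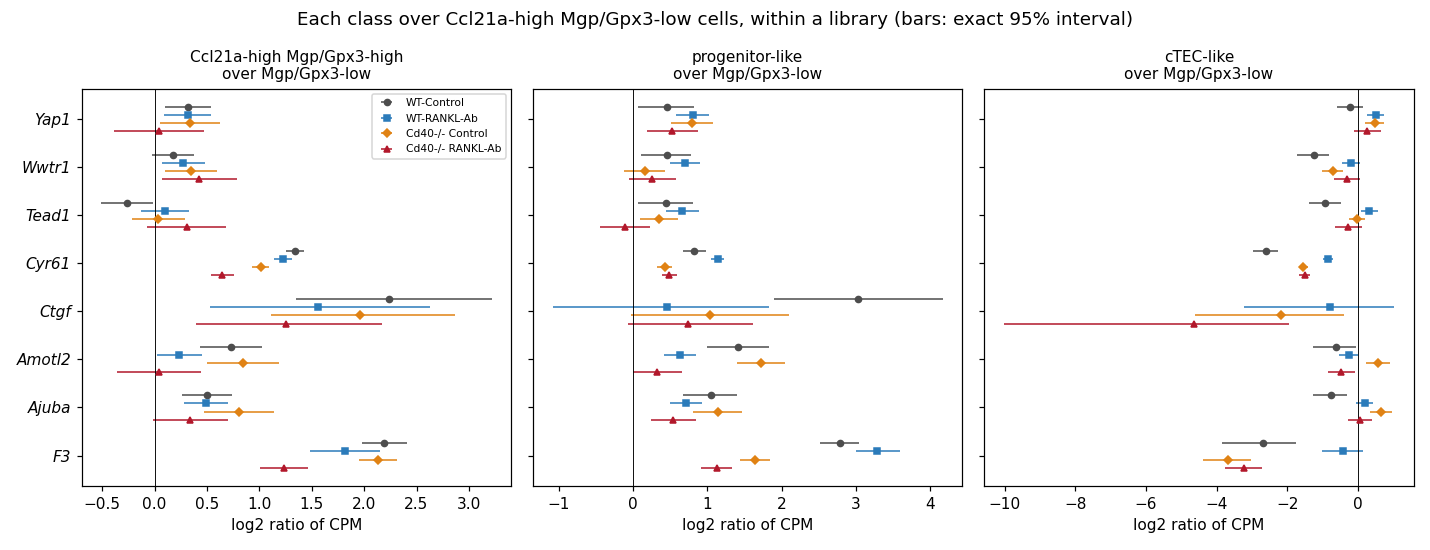
Log2 ratio of CPM (x axis) of each gene (y axis) in Mgp/Gpx3-high, progenitor-like and cTEC-like cells over Ccl21a-high Mgp/Gpx3-low cells, with 1 point per library and bars for exact 95% intervals. Cyr61 and F3 lie between 0.64 and 2.19 in Mgp/Gpx3-high cells and to the left of 0 in cTEC-like cells.

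The Mgp/Gpx3 split cuts a continuous range. Just below the threshold, at 15 to 20 Mgp and Gpx3 UMIs per 10000, CCL21+ cells held 189, 282, 489 and 630 CPM of Cyr61, and just above it, at 20 to 25, they held 337, 279, 410 and 784 CPM. For F3 the same bins held 24.3, 17.9, 131 and 184 CPM, and 38.2, 19.4, 129 and 200 CPM. Cells with fewer than 5 such UMIs held 86.0, 119, 216 and 324 CPM of Cyr61 and 11.1, 5.39, 16.8 and 46.7 CPM of F3. Those with at least 60 held 420, 379, 704 and 746 CPM of Cyr61 and 139, 41.4, 302 and 227 CPM of F3. Both genes were thus higher at the upper than at the lower end of the range in each library, and of the bins on either side of the threshold the upper one held more Cyr61 in WT-Control and Cd40-/- RANKL-Ab, less in Cd40-/- Control and about the same in WT-RANKL-Ab.

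Cyr61 also followed the immediate early genes Fos, Fosb, Jun, Junb, Egr1, Atf3, Ier2, Ier3, Dusp1, Zfp36, Btg2 and Nr4a1, the AP-1 factors and their companions that respond within minutes to stimulation. From cells with fewer than 10 to cells with at least 50 UMIs of these per 10000, Cyr61 in Mgp/Gpx3-high cells went from 108 to 889 CPM in WT-Control, from 143 to 850 in WT-RANKL-Ab, and from 294 to 1267 and from 263 to 1045 in the 2 Cd40-/- libraries. In Mgp/Gpx3-low cells it went from 52.1 to 308, from 57.4 to 455, from 116 to 611 and from 142 to 639 CPM. The bins, below 10, 10 to 25, 25 to 50 and at least 50 per 10000, each span a range of immediate early counts. Within a bin Mgp/Gpx3-high cells held 1.39 to 3.25 times the Cyr61 of Mgp/Gpx3-low cells. In the lowest bin they held 2.07, 2.48, 2.54 and 1.85 times as much.

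F3 in Mgp/Gpx3-high cells did not follow them in one direction, going from 76.4 to 84.2, from 30.6 to 25.6, from 252 to 177 and from 159 to 211 CPM between the same end bins. The summed level of the 12 immediate early genes was 2790, 2200, 3420 and 4944 CPM in Mgp/Gpx3-high and 3059, 2323, 4082 and 4908 CPM in Mgp/Gpx3-low cells, 2278, 3142, 4338 and 5624 CPM in progenitor-like and 946, 1235, 1399 and 1902 CPM in cTEC-like cells. It was higher in both Cd40-/- libraries than in both WT libraries in each of the 4 classes, as Cyr61 was. Its part in the Cyr61 levels was not tested.

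**Figure D3:**
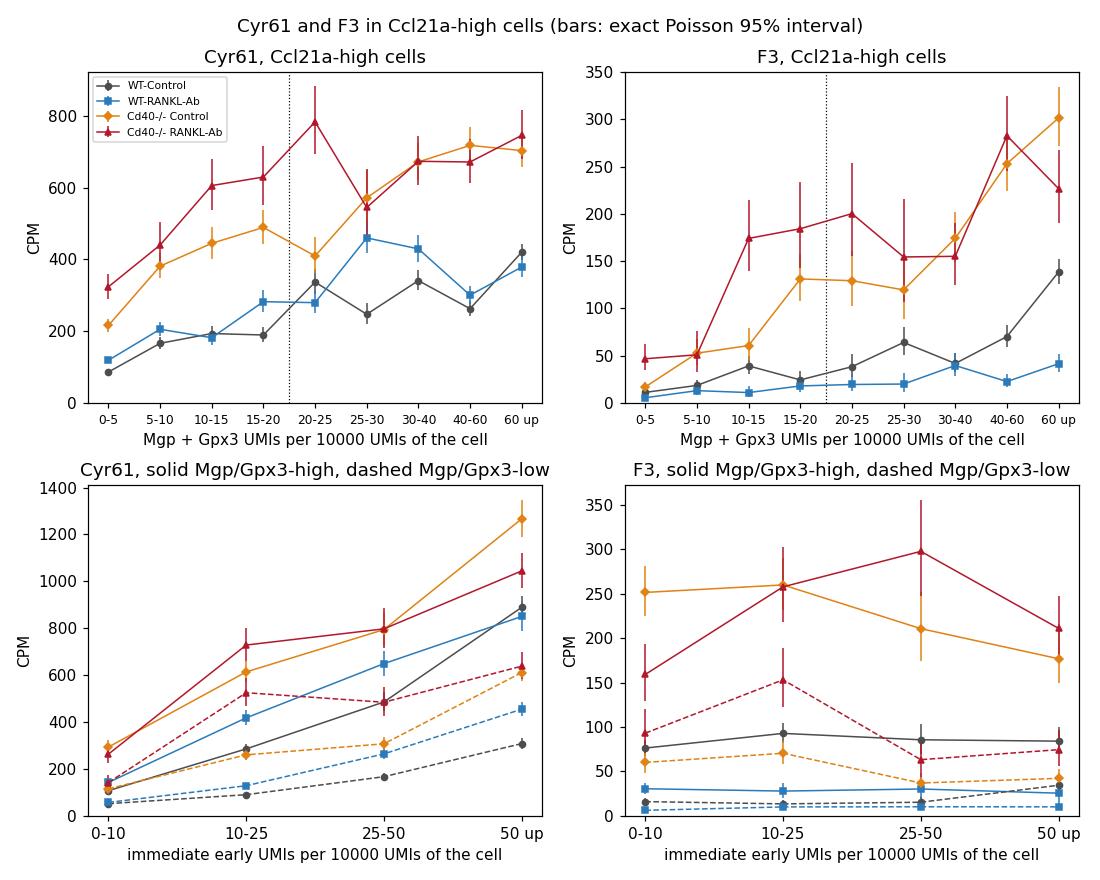
Cyr61 and F3 level (y axis, CPM) in CCL21+ cells binned by Mgp and Gpx3 UMIs per 10000 (upper panels, with the threshold dotted) or by immediate early gene UMIs per 10000 (lower panels, Mgp/Gpx3-high solid and Mgp/Gpx3-low dashed), with 1 line per library and bars for exact Poisson 95% intervals. Cyr61 is higher at the upper end of both measures, from 108 to 889 CPM across the immediate early bins in WT-Control Mgp/Gpx3-high cells, whereas F3 in the same cells goes from 76.4 to 84.2 CPM.

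Markers of other cells were read in the same classes, since fibroblasts, mural and endothelial cells hold Cyr61 and Ctgf. The summed level of 5 fibroblast markers (Col1a1, Col1a2, Col3a1, Pdgfra and Lum) was 11.8, 7.91, 52.2 and 30.05 CPM in Mgp/Gpx3-high and 6.84, 5.89, 29.8 and 20.1 CPM in Mgp/Gpx3-low cells, higher in the former and in the Cd40-/- libraries, as Cyr61 was. The 4 endothelial markers (Pecam1, Cdh5, Kdr and Emcn) summed to 1.45, 1.76, 1.55 and 15.9 CPM and to 2.96, 1.06, 1.92 and 8.05 CPM. The 4 mural markers (Rgs5, Pdgfrb, Notch3 and Cspg4) summed to 444, 211, 198 and 46.4 CPM in Mgp/Gpx3-high and to 985, 564, 805 and 156 CPM in Mgp/Gpx3-low cells, nearly all of it Rgs5, with Pdgfrb at 0.111 to 0.586 and Cspg4 at 0.147 to 0.429 CPM in Mgp/Gpx3-high cells. The mural sum, set by Rgs5, was the lower one in Mgp/Gpx3-high cells of each library, opposite to Cyr61. Notch3 was at 19.4, 26.8, 17.3 and 1.72 CPM in Mgp/Gpx3-high and at 7.52, 12.8, 8.48 and 4.03 CPM in Mgp/Gpx3-low cells. It was thus higher in Mgp/Gpx3-high cells, as Cyr61 was, in all libraries but Cd40-/- RANKL-Ab. Progenitor-like cells held 76.7, 58.8, 44.7 and 56.3 CPM of the fibroblast markers, more than Mgp/Gpx3-high cells except in Cd40-/- Control. In cTEC-like cells the fibroblast sum was 17.7, 5.28, 4.56 and 8.51 CPM. The part of fibroblast RNA in the levels of any class was not tested.

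Cyr61 was spread over many cells and did not rest on a few. After each cell was thinned to 1000 UMIs, 20.9%, 21.7%, 34.7% and 36.9% of Mgp/Gpx3-high cells held a Cyr61 UMI (exact 95% intervals 18.7% to 23.4%, 19.1% to 24.6%, 30.9% to 38.6% and 31.4% to 42.6%), and 44.9%, 48.4%, 62.0% and 66.4% before thinning. The shares were 10.5%, 10.4%, 20.7% and 25.3% of Mgp/Gpx3-low, 12.7%, 18.2%, 27.9% and 31.3% of progenitor-like and 2.41%, 5.29%, 7.11% and 12.1% of cTEC-like cells. Thymocyte-like cells, which should lack the gene, held it in 4.59%, 0.930%, 2.48% and 1.64%. Of all thymocyte-like cells 54.6%, 35.2%, 32.9% and 20.9% passed several gates, by markers of epithelial or of cycling cells, and some may carry epithelial RNA. The 1.34%, 1.59% and 1.56% of Aire+ cells were near the thymocyte-like shares, below them in WT-Control and Cd40-/- Control and above in WT-RANKL-Ab. Median depths before thinning were 5731 to 6938 UMIs in Mgp/Gpx3-high and 1564 to 7514 UMIs in thymocyte-like cells.

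An F3 UMI was found after thinning in 6.98%, 2.63%, 17.1% and 16.3% of Mgp/Gpx3-high cells, in 1.61%, 0.667%, 3.58% and 8.02% of Mgp/Gpx3-low cells and in 10.2%, 9.22%, 12.4% and 15.4% of progenitor-like cells. Thymocyte-like cells held one in 0.917% of WT-Control and 0.546% of Cd40-/- RANKL-Ab cells, and in 0 of 215 and 0 of 282 cells of the other two, which allow shares up to 1.40% and 1.06%. Mgp/Gpx3-high cells with a Cyr61 UMI held an F3 UMI in 11.2%, 5.56%, 22.01% and 16.2% of cases, against 5.85%, 1.82%, 14.5% and 16.3% of those without one. An F3 UMI was thus more frequent beside a Cyr61 UMI in 3 libraries and about equally frequent in Cd40-/- RANKL-Ab. Yap1 was found in 3.70%, 4.72%, 5.64% and 5.98% of Mgp/Gpx3-high cells. In Aire+ cells its share of 0.980%, 0.794% and 1.07% lay within the counting interval of the thymocyte-like cells of the same library, which held 0.917%, 0.465% and 1.06%.

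Between conditions, with 1 library each, the ratios describe these libraries. Cyr61 in Mgp/Gpx3-high cells had a log2 ratio over WT-Control of 0.09 (0.01 to 0.17) in WT-RANKL-Ab, and of 1.00 (0.92 to 1.07) and 1.07 (0.99 to 1.16) in the Cd40-/- libraries with control IgG and RANKL-Ab. In Mgp/Gpx3-low cells the ratios were 0.21 (0.12 to 0.30), 1.33 (1.24 to 1.42) and 1.77 (1.66 to 1.88). Cyr61 was thus higher in both CCL21+ classes of the Cd40-/- libraries, by more in the Mgp/Gpx3-low cells, and close to WT-Control in WT-RANKL-Ab, where the sign in Mgp/Gpx3-high cells turned under TMM scaling. Of RANKL-Ab within Cd40-/- mice, the ratio was 0.07 (-0.01 to 0.16) in Mgp/Gpx3-high and 0.44 (0.34 to 0.55) in Mgp/Gpx3-low cells.

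F3 lay below WT-Control in WT-RANKL-Ab and above it in the Cd40-/- libraries in both CCL21+ classes. In Mgp/Gpx3-high cells its log2 ratio over WT-Control was -1.52 (-1.75 to -1.29) in WT-RANKL-Ab, and 1.47 (1.33 to 1.61) and 1.42 (1.25 to 1.58) in the Cd40-/- libraries. In Mgp/Gpx3-low cells it was -1.14 (-1.46 to -0.83), 1.53 (1.29 to 1.78) and 2.38 (2.11 to 2.64). RANKL-Ab thus went with less F3 in the WT libraries, while in Cd40-/- mice it went with -0.05 (-0.21 to 0.10) in Mgp/Gpx3-high and 0.84 (0.60 to 1.09) in Mgp/Gpx3-low cells. In progenitor-like cells the ratios over WT-Control were -0.64 (-0.87 to -0.40), 0.39 and 0.72, and without the cells that passed several gates those of the Cd40-/- libraries turned to -0.71 (-1.13 to -0.29) and -0.55 (-0.94 to -0.15).

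Yap1, Wwtr1 and Tead1 were set side by side in the same way. In Mgp/Gpx3-high cells the log2 ratio of Yap1 over WT-Control was 0.09 (-0.15 to 0.33), 0.38 (0.10 to 0.64) and 0.14 (-0.21 to 0.48), and that of Wwtr1 was 0.20, 0.65 and 0.72. Tead1 stood at 0.48 (0.21 to 0.76), 1.17 (0.89 to 1.45) and 1.20 (0.87 to 1.52) in those cells and at 0.12, 0.87 and 0.63 in Mgp/Gpx3-low cells. Among the 3 factors, Tead1 in Mgp/Gpx3-high cells thus lay past 2-fold in both Cd40-/- libraries. Amotl2 stood at 0.83, 0.78 and 0.99 in Mgp/Gpx3-high and at 1.31 (1.07 to 1.57), 0.66 and 1.67 in Mgp/Gpx3-low cells, higher in the antibody libraries of the latter, and Ajuba at 0.51, 0.40 and 0.98 and at 0.52, 0.10 and 1.14. Ctgf, with few UMIs, stood at -0.77 (-1.61 to 0.02), 1.08 and 1.70 in Mgp/Gpx3-high cells, the same signs as F3.

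**Figure D4:**
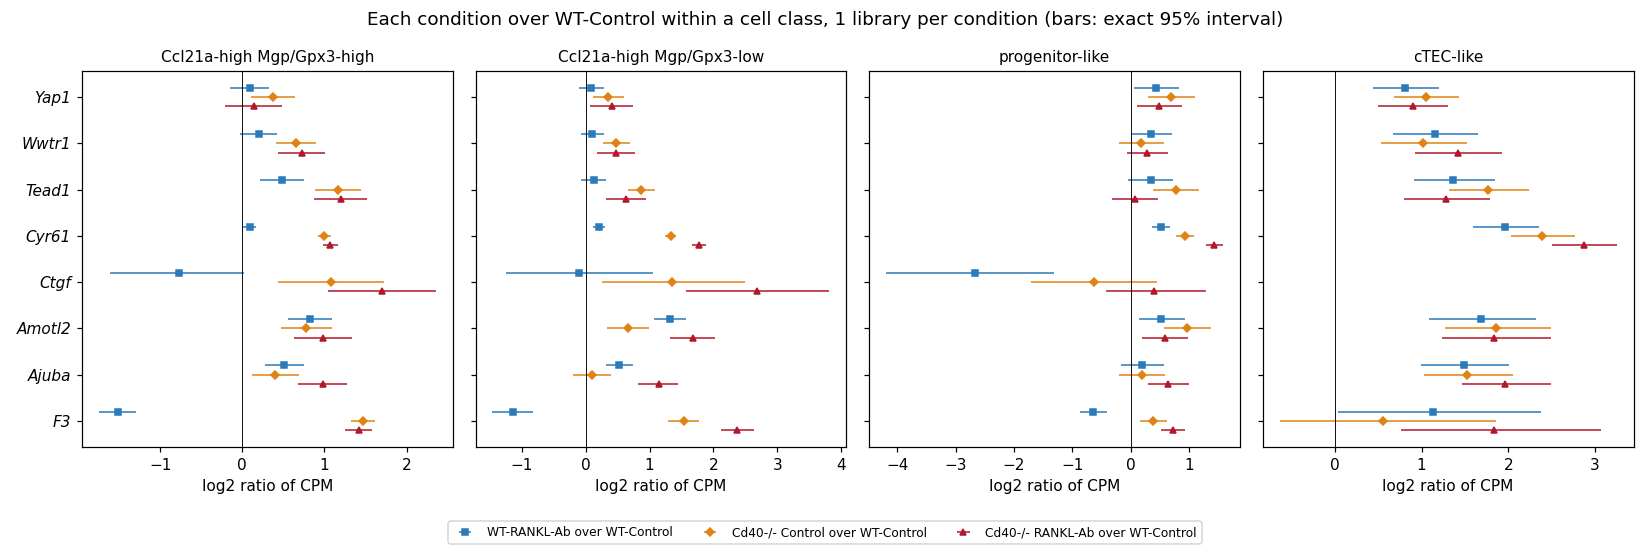
Log2 ratio of CPM over WT-Control (x axis) of each gene (y axis) in 4 cell classes, with 1 point per other library and bars for exact 95% intervals of counting error. F3 lies at -1.52 in WT-RANKL-Ab and at 1.47 and 1.42 in the Cd40-/- libraries of Mgp/Gpx3-high cells.

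Past 2-fold of WT-Control in Mgp/Gpx3-high cells were 1, 3 and 4 of the 8 members in WT-RANKL-Ab and the Cd40-/- libraries with control IgG and RANKL-Ab, beside 8.36%, 11.0% and 13.9% of all genes for which the 2 libraries summed to 20 UMIs or more. In Mgp/Gpx3-low cells these were 2, 3 and 5 members beside 11.1%, 11.8% and 18.7% of genes. In progenitor-like cells 1, 0 and 1 members passed, beside 7.01%, 12.1% and 8.50% of genes, a share near that of all genes. The median log2 ratio of the members was 0.14, 0.89 and 1.03 in Mgp/Gpx3-high, 0.11, 0.77 and 1.41 in Mgp/Gpx3-low and 0.35, 0.55 and 0.53 in progenitor-like cells, while that of all genes lay between 0.09 and 0.21. All these ratios share the WT-Control library.

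In cTEC-like cells 6 of 7 members passed 2-fold in each of the 3 libraries, beside 28.8%, 36.5% and 35.8% of all genes. The median log2 ratio of the members was 1.36, 1.52 and 1.84, and that of all genes 0.26, 0.28 and 0.36. A shift of the WT-Control library and a change common to the other conditions cannot be told apart here. WT-Control held Cyr61 at 21.8 CPM, Tead1 at 15.5 CPM and Yap1 at 24.6 CPM, below the cTEC-like cells of the other 3 libraries. Several gates were passed by 43.2% of its cTEC-like cells. The log2 ratio of Tead1 was 1.36 (0.91 to 1.84) in WT-RANKL-Ab over WT-Control and -0.48 (-0.79 to -0.18) in Cd40-/- RANKL-Ab over Cd40-/- Control. Without the cells that passed several gates, 4, 3 and 3 members passed 2-fold in the 3 libraries. The share of all genes in that setting is not set beside these counts, so nothing is read from the fall. Ctgf has no ratio here because no UMI was found in WT-Control.

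Other genes of the pathway, 42 regulators and targets that are no members, were tested between classes with the library as a block, where each library gives 1 sum per class. Of the 36 with enough counts, edgeR's quasi-likelihood test with Benjamini-Hochberg adjustment, at adjusted p of 0.05 and 2-fold, called 5 higher and 1 lower in Mgp/Gpx3-high than in Mgp/Gpx3-low cells, where it called 1.96% of all genes higher and 3.27% lower. The median log2 difference over these pathway genes was 0.02, and over all genes 0.00. Without the library as a block none of the 6 was called. The pathway list was chosen with earlier results of these data known, and the classes were gated on the same counts. The adjusted p-values below are to be read with that limit.

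Among the cofactors and regulators, Vgll3, a TEAD cofactor of the vestigial family, was higher by 1.90 on the log2 scale (SE 0.24, edgeR quasi-likelihood adjusted p = 0.000136), at 3.79, 7.47, 3.88 and 6.87 CPM against 0.760, 2.25, 1.28 and 2.01 CPM. Vgll3 was rare, with 134, 197, 106 and 84 UMIs over all cells of the libraries, so the class sums rest on few counts. Wwc2, a KIBRA relative that activates LATS kinases, was higher by 1.35 (SE 0.10, edgeR quasi-likelihood adjusted p = 2.91e-06), at 36.4, 52.3, 62.8 and 65.2 CPM against 12.8, 19.9, 24.97 and 37.8 CPM. Both a TEAD cofactor and an activator of LATS kinases thus stood higher where Cyr61 did, in each library and without overlap for Vgll3.

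Among the targets, Igfbp3, which binds insulin-like growth factors, was higher by 1.30 (SE 0.28, edgeR quasi-likelihood adjusted p = 0.00474), Ccdc80, a matrix protein, by 1.19 (SE 0.14, edgeR quasi-likelihood adjusted p = 8.43e-05) and Fjx1 by 1.08 (SE 0.22, edgeR quasi-likelihood adjusted p = 0.00386). Igfbp3 ran at 14.3, 50.9, 20.9 and 155 CPM against 7.83, 8.13, 16.5 and 93.0 CPM, an uneven excess. Igfbp3 was not called without WT-RANKL-Ab or with the DESeq2 Wald test. Ccdc80 ran at 97.5, 72.7, 91.8 and 95.7 CPM against 32.7, 39.5, 32.6 and 72.5 CPM, with no overlap of the classes. Neither Ccdc80 nor Fjx1 was called without WT-Control or with gate thresholds doubled, and Fjx1 was not called with them halved. Nuak2, a kinase that is itself a YAP target, was lower by a log2 difference of -1.45 (SE 0.27, edgeR quasi-likelihood adjusted p = 0.00197), at 1.17 to 2.07 CPM against 2.82 to 6.72 CPM. All cells of Cd40-/- RANKL-Ab together held 38 Nuak2 UMIs.

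In progenitor-like over Mgp/Gpx3-low cells 8 of 36 pathway genes were called higher and 1 lower, with 7.04% and 8.03% of all genes. These included all 5 genes that were higher in Mgp/Gpx3-high cells, Fjx1 by 3.60 (SE 0.29), Vgll3 by 3.04 (SE 0.29), Igfbp3 by 2.69 (SE 0.48), Wwc2 by 1.95 (SE 0.19) and Ccdc80 by 1.32 (SE 0.21), and the contrasts share the Mgp/Gpx3-low cells. The other three were Nt5e, the ecto-nucleotidase CD73, by 3.67 (SE 0.40), the RNA-binding protein gene Rbms3 by 1.58 (SE 0.16) and the kinase gene Lats2 by 1.20 (SE 0.16). Tead2, another TEAD factor, was lower by a log2 difference of -2.35 (SE 0.24), at 2.96 to 5.62 CPM against 22.6, 43.4, 9.76 and 13.3 CPM, whereas the log2 ratio of Tead1 between the same classes was 0.44, 0.66, 0.35 and -0.11. Over these 9 calls the edgeR quasi-likelihood adjusted p was at most 0.00292. Ccdc80 and Lats2 were not called with gate thresholds doubled, and Igfbp3 was not called without the library as a block.

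In cTEC-like over Mgp/Gpx3-low cells 5 of 36 pathway genes were higher and 3 lower, with 10.8% and 9.11% of all genes. Mob1b, a coactivator of LATS kinases, was higher by 1.93 (SE 0.18), at 56.2, 121, 138 and 125 CPM against 24.8, 25.5, 35.8 and 27.4 CPM, followed by Taok3 at 1.68 (SE 0.14), Dock5 at 1.45 (SE 0.26), Gadd45a at 1.25 (SE 0.13) and Rbms3 at 1.01 (SE 0.16). Tead2 stood at -2.99 (SE 0.26), Ccdc80 at -1.28 (SE 0.17) and Axl, a receptor tyrosine kinase and YAP target, at -1.08 (SE 0.22). Both counts are near the share of all genes, with targets called in both directions. Axl was not called without WT-RANKL-Ab, Cd40-/- Control or Cd40-/- RANKL-Ab, and Rbms3 not without WT-RANKL-Ab or Cd40-/- Control.

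In Aire+ over Mgp/Gpx3-low cells, in 3 libraries, 11 of 38 pathway genes were lower and 5 higher, with 13.2% and 25.7% of all genes. Lower were Wwc2 (-2.87), Tead2 (-2.48), Rbms3 (-2.22), Wtip (-2.19), Amotl1 (-2.15), Lats2 (-2.12), Crim1 (-1.995), Tead3 (-1.98), Amot (-1.51), Ccdc80 (-1.46) and Sav1 (-1.05), which include 2 TEAD factors, both other angiomotins and the scaffold of the kinase cascade. Higher were Ankrd1 by 4.07 (SE 0.56), Vgll2 by 2.01, Gadd45a by 1.92 (SE 0.12), Tgfb2 by 1.60 and Nuak2 by 1.53. Ankrd1, often used as a YAP readout in muscle and fibroblasts, thus went against the members, from 0.912, 0 and 0.640 CPM in Mgp/Gpx3-low cells to 11.4, 3.07 and 10.1 CPM. All cells of WT-RANKL-Ab together held 4 Ankrd1 UMIs, so no fold is read for that library. Ankrd1 was also called with WT-RANKL-Ab left out. Aire+ cells express many genes of other tissues at low levels, and whether this has a part in the Ankrd1 level was not tested. The median log2 difference over the pathway genes was -0.54, against 0.01 over all genes.

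**Figure D5:**
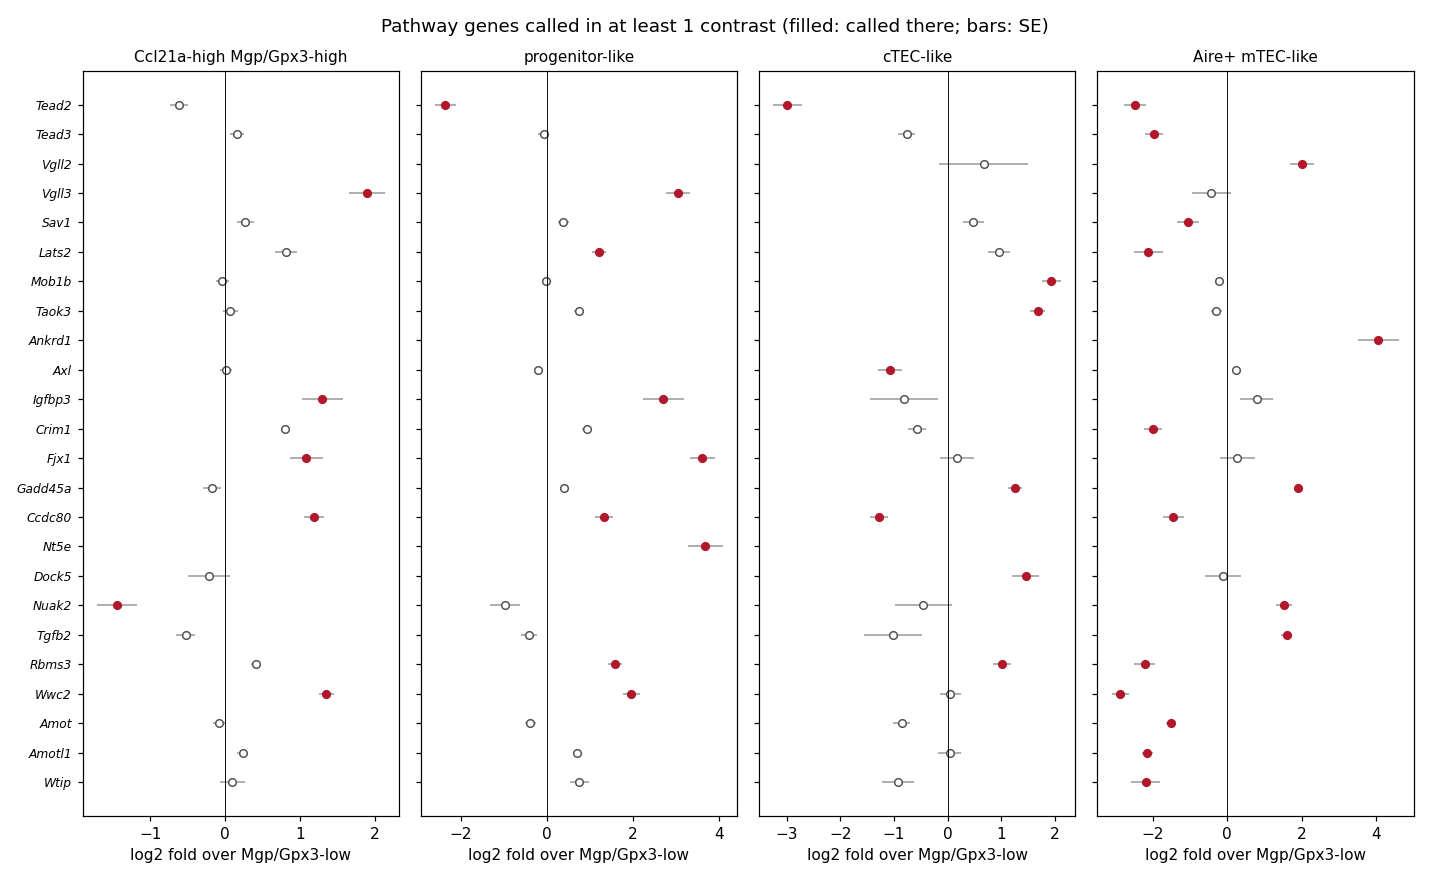
Log2 difference over Ccl21a-high Mgp/Gpx3-low cells (x axis) of the pathway genes called in at least 1 class contrast (y axis), filled where called, with bars for the SE of the edgeR fit. In Aire+ mTEC-like cells 11 filled points lie to the left of 0 and 5 to the right, and those of Vgll3, Wwc2, Igfbp3, Ccdc80 and Fjx1 lie to the right in both Mgp/Gpx3-high and progenitor-like cells.

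The genes most like each member over 61 sums of a class in a library were sought among 13785 genes by Pearson's r of log2(CPM + 10), as a description, since sums of 1 library share cells, depth and free RNA. Cyr61 was most like Pros1 (0.94), Casp12 (0.93) and Wls (0.92), and F3 most like Fst (0.93), Ehd2 (0.93) and Bcam (0.92). Yap1 was most like the angiomotin gene Amotl1 (0.91), followed by Pard6g (0.90), and Wwtr1 most like Pros1 (0.90), Nfic (0.90) and Gpx8 (0.89). Amotl2 was most like Ankrd6 (0.91), Limch1 (0.88) and Clstn1 (0.88), and Ajuba most like Pgm5 (0.91), Gas6 (0.91) and Trp63 (0.91). Tead1 and Ctgf had weaker partners, Isl1 (0.83), Bmpr1a (0.80) and Taok1 (0.79) for Tead1 and Chrd, Vsnl1 and Scn7a (each 0.84) for Ctgf. Among the members themselves r was 0.89 for Cyr61 with F3, 0.88 for Cyr61 with Wwtr1 and, at the low end, 0.43 for Ctgf with Tead1.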

How the data were processed

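Droplet-based scRNA-seq of TECs was read from the deposited matrices, which hold the authors' UMI counts per gene and barcode, without normalization, for barcodes called as cells by Cell Ranger on mm10 (version 5.1 in the submitters' processing notes, 5.0.1 in the file header and the methods). The libraries held 10590, 7446, 9118 and 2099 barcodes and 95607338, 48888745, 66755852 and 19175068 UMIs in the order WT-Control and WT-RANKL-Ab, then the Cd40-/- libraries with control IgG and with RANKL-Ab. Genes in more than 5 cells were kept, and barcodes with 200 or more genes and a mitochondrial share of UMIs up to 25%. No doublet caller was run.

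The members, marker lists and pathway list were chosen with earlier results of these data known. Cells were gated by markers, with thresholds set from the distributions of the marker sums, and UMIs were summed per class and library and scaled to 1000000 UMIs (CPM). Intervals are exact at the 95% level, Poisson for CPM, Clopper-Pearson for shares and conditional binomial for ratios, and cover counting error only, since a condition has 1 library of 3 pooled mice. Upper limits for 0 counts use 3 counts. For shares, cells were thinned to 1000 UMIs, which left out 570, 492, 806 and 74 cells. Classes were compared with edgeR 4.0.16 (quasi-likelihood, R 4.3.3) on the summed counts of all genes, with the library as a block, an adjusted p (Benjamini-Hochberg) of 0.05 and a 2-fold change as limits; these p-values measure the spread between the 4 libraries, which differ in condition. Marker genes also set the classes. The fits and intervals were tested on simulated data. Genes named were the 8 members, the pathway genes called in a contrast and, per member, the 3 genes most like it, of which 1 is not reported here. Promoter windows come from RefSeq tables and gene positions from GENCODE M21. Python 3.11.15 with numpy 2.4.6, scipy 1.17.1, pandas 2.3.3 and matplotlib 3.10.9 was used.

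The alternatives were DESeq2 1.42.0 (Wald test, and its size factors), no filter on low counts, no library block, each library left out, a mitochondrial limit of 13%, cells with at least 2000 UMIs, cells without those over 30000 UMIs, gate thresholds doubled and halved, removal of cells that pass several gates, TMM factors, genes with at least 100 UMIs and, chosen after seeing the data, removal of the barcodes found in several libraries. Bulk RNA-seq, flow cytometry and other assays were not analysed here.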

Additional observations from a re-analysis of the deposited data

Results flagged for a closer look

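In 5 cases a member's log2 ratio of RANKL-Ab over control IgG was above 0 with its counting interval in one genotype and below 0 in the other, and the difference between genotypes was not tested, since each condition is 1 library. F3 in Mgp/Gpx3-low cells stood at -1.14 in WT and at 0.84 in Cd40-/- mice, and in progenitor-like cells at -0.64 and 0.33. Without the cells that passed several gates, F3 in progenitor-like cells was lower in each library, most in Cd40-/- mice, as given above. The Cd40-/- libraries with control IgG and RANKL-Ab then stood at -0.71 and -0.55 over WT-Control on the log2 scale. Ctgf in progenitor-like cells stood at -2.67 in WT and at 1.03 in Cd40-/- mice, on 16, 7, 17 and 58 UMIs. Without the cells that passed several gates 4, 2, 3 and 5 UMIs of Ctgf were left, and both ratios (-2.75 and 0.47) had intervals that held 0. Amotl2 in progenitor-like cells stood at 0.53 and -0.38. Tead1 in cTEC-like cells stood at 1.36 in WT and at -0.48 in Cd40-/- mice, where the WT-Control library holds the lowest level of the 4.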

How the results depend on the processing

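With 1 library per condition no ratio between conditions has a replicate, and doublets and cells of 2 types stay in the gates. Of the members' condition ratios under the alternatives, 1034 moved little, 82 moved and 6 turned sign. The latter were Cyr61 of Mgp/Gpx3-high cells in WT-RANKL-Ab (-0.052 with TMM factors), Ctgf of Mgp/Gpx3-low cells in Cd40-/- RANKL-Ab over Cd40-/- Control (-0.0046 with gates halved), F3 of progenitor-like cells in Cd40-/- Control (-0.71) and Cd40-/- RANKL-Ab (-0.55) without cells that pass several gates, and F3 of cTEC-like cells in WT-RANKL-Ab (-0.17 with gates doubled, -0.21 with gates halved). The causes were not tested.

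For Mgp/Gpx3-high over Mgp/Gpx3-low cells, 240 genes were called higher and 401 lower, but 15 and 14 without the library block and 726 lower without a filter. Of the pathway genes, 5 were called higher, but 0 without the block, 3 with gates doubled and 3 to 5 with a library left out, and 1 lower, but 0 without the block, 2 without a filter and 1 to 2 with a library left out. In progenitor-like cells the higher pathway genes numbered 8, or 6 with gates doubled and 7 to 9 under the other alternatives. In progenitor-like cells the lower pathway genes numbered 1, or 2 with gates halved and 1 to 2 with a library left out, and in cTEC-like cells 3, or 6 with gates doubled, 1 with gates halved and 2 to 5 with a library left out (5 without WT-Control). Genes lower in Aire+ cells numbered 2094, or 1348 to 2481 with a library left out (1348 without WT-Control). 

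Members past 2-fold of WT-Control in WT-RANKL-Ab went from 1 to 2 in Mgp/Gpx3-high cells with gates doubled, from 2 to 1 in Mgp/Gpx3-low cells with gates doubled or halved, from 1 to 0 in progenitor-like cells with gates doubled, without cells that pass several gates or with at least 100 UMIs, and from 6 to 3 in cTEC-like cells with gates doubled. In Cd40-/- Control they went from 0 to 1 in progenitor-like cells with gates doubled, halved or without cells that pass several gates, and from 6 to 3 in cTEC-like cells with gates doubled or without those cells. In Cd40-/- RANKL-Ab they went from 5 to 3 in Mgp/Gpx3-low cells with gates halved and from 6 to 3 in cTEC-like cells with gates doubled or without cells that pass several gates, and the members of progenitor-like cells whose interval lay above 0 went from 5 to 3 without those cells. The percent of all genes past 2-fold moved under the alternatives in 14 cases and stayed the same in 82. It is not set beside each count, so nothing is read from the changes in members.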
